A study of Homo sapiens with 5 samples.

Results

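Tumour RNA from food without tryptophan and niacin was compared with tumour RNA from normal food, with 1 RNA library on each side. The genes compared are the 9910 of 26364 listed genes that had a mean of at least 10 counts over both libraries. A further 5474 genes had a count in either library but lay under that minimum, and 10980 were at 0 in both. With a lone library per food, no test of the foods was possible, and every interval given here covers counting error only.

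Tumours on both foods grew from HT-29, an established human colon cancer line, implanted under the skin of the back. The hosts were female NOD SCID mice, 5 weeks old at purchase, which lack T and B cells, so effects that need those cells cannot appear in either library. The design text gives 2 weeks on the food in one place and a period of 3 weeks in another. The series also holds 2 libraries from methionine-free food and 1 from a food lacking all 3 nutrients, called the combined omission here; these share the cell line, host and protocols. They entered the scaling and are printed beside the key genes. The labels do not say how many mice stand behind a library. Sample titles are short codes for normal food and the combined omission and longer codes of another style for the remaining 3 libraries, so any difference in handling that the codes reflect cannot be told apart from the food in this comparison.

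Cells make the cofactor NAD from dietary tryptophan through the kynurenine pathway, from nicotinic acid through the Preiss-Handler pathway, and by recycling nicotinamide. The enzyme NNMT methylates nicotinamide with S-adenosylmethionine, which ties this chemistry to methionine, and that link is the question the study states for the food. Oxygen sensing enters the results as well. Prolyl hydroxylases (EGLN proteins) use oxygen to mark the HIF alpha subunits for destruction by VHL, and when oxygen is short HIF binds a short DNA core near genes of glycolysis, vessel growth and acid balance and raises their transcription.

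Totals were 1088084 counts for normal food and 613604 for tryptophan/niacin-free food, and 433930 to 678618 for the other 3 libraries, which is shallow. A single count was worth 0.908 CPM (a depth-scaled count, adjusted by TMM, a factor that aligns libraries on their common genes) on normal food and 1.57 CPM on tryptophan/niacin-free food. The HT-29 label was checked on 18 epithelial genes, of which 17 passed the minimum. They show epithelial cells and cannot tell HT-29 from another epithelial line. KRT8, a simple-epithelium keratin, stood at 6707 and 7023 CPM on normal and tryptophan/niacin-free food, and the adhesion gene EPCAM at 583 and 572 CPM. Most of the 17 were lower on tryptophan/niacin-free food, 14 of them, with a median log2 difference of -0.33. Methionine-free replicate 2 stood apart, with its 10 highest genes holding 6.42% of counts against 4.26% to 4.91% in the other libraries, and with ribosomal protein genes summing to 135200 CPM against 68000 to 88790 CPM.

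A gene was called lower or higher when its log2 CPM difference (prior count of 2 added) was at least 1 in size and the 95% exact binomial interval of the scaled count ratio excluded 1. By this rule 257 genes were lower on tryptophan/niacin-free food (2.59% of 9910) and 85 were higher (0.858%), 3.45% in all. The same rule applied to both methionine-free libraries, the sole pair on 1 food, called 357 of 8864 genes lower in replicate 2 (4.03%) and 211 higher (2.38%), 6.41% in all. Fewer genes were thus called between the foods than between libraries of one food, and the number of calls alone sets nothing apart. Without the 2-fold limit, the interval lay below 1 for 7.87% of genes and above 1 for 6.1%.

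The point estimate reached 4-fold for 63 of the lower genes and for 2 of the higher genes, and the whole interval lay beyond 2-fold for 39 lower and 5 higher genes. The minimum is set on raw counts and the normal food library is deeper, so genes high on normal food pass it at a lower CPM. The split between lower and higher calls therefore depends in part on depth and the minimum. With no minimum beyond 1 count the calls were 303 lower and 129 higher, and with a mean of at least 50 counts 77 and 7. Of the 257 lower genes, 243 had a smaller difference within the methionine-free pair than between the foods, as had 79 of the 85 higher genes. The rule picked these genes for a large difference between the foods, so this is largely fixed in advance and sets nothing apart. For all genes the median size of the log2 difference was 0.37 within the pair and 0.26 between the foods. Both methionine-free libraries are shallower than the normal food library (553502 and 678618 against 1088084 counts), and replicate 2 stood apart. These sizes are therefore not a like comparison, and the same limits apply to the numbers of calls. Over all 9910 genes the median log2 difference was -0.01, with quartiles of -0.28 and 0.24, and 4847 genes lay above 0 and 5056 below. The median level was 27.4 CPM for the lower and 27.8 CPM for the higher genes, against 48.0 CPM for all genes, so most calls rest on few reads. Larger differences at high level were on the lower side, as the plot of difference against level shows.

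**Figure D1:**
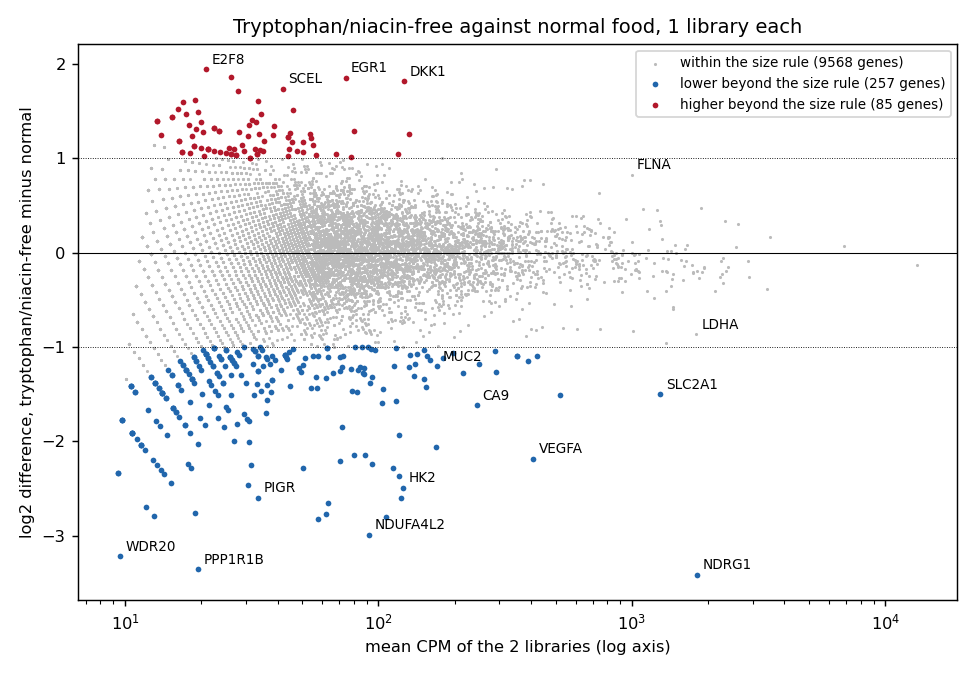
The log2 difference (tryptophan/niacin-free minus normal) of 9910 genes is plotted against their mean CPM over both libraries (log axis), with dotted lines at a 2-fold difference. NDRG1 at -3.42 is the lowest point, VEGFA and SLC2A1 lie well below 0 at high level, and E2F8 at 1.94 is the highest of the 85 higher genes in red.

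Many genes of a list that low oxygen is known to induce were lower on tryptophan/niacin-free food. Of 27 measured genes of this list of hypoxia-induced stress and vascular genes, 17 were lower by the rule and 0 were higher, beside 2.59% of all genes, and 26 of 27 lay below 0. The median log2 difference of the list was -1.45, and the same genes differed by a median of -0.02 within the methionine-free pair. The list was chosen with earlier results of these data known and is described here, not tested. Below are promoter windows of 4 lower genes, picked because the core ACGTG or GCGTG that HIF can bind lies in each. Each runs from 250 bases before to 50 bases after the RefSeq start site on the plus strand of GRCh38.p14, and capitals mark the core on either strand.

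CA9 (chr9:35673678-35673977): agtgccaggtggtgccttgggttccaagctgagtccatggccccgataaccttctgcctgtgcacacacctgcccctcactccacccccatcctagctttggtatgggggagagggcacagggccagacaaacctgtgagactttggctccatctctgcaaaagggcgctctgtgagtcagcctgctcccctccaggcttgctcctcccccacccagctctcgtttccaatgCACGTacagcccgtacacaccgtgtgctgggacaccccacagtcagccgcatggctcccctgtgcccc
ENO2 (chr12:6914330-6914629): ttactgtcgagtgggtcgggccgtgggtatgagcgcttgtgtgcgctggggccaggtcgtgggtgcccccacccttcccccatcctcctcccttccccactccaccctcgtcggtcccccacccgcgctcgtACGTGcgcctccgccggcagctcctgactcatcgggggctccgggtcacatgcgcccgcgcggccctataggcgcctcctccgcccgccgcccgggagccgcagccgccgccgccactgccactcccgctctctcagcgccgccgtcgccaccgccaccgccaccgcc
HK2 (chr2:74833877-74834176): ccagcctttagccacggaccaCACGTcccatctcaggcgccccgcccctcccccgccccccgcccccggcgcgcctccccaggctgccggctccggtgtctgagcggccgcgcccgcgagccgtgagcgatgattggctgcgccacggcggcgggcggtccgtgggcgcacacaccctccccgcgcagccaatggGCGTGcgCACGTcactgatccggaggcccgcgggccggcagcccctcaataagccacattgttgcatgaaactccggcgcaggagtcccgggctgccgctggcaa
PFKFB3 (chr10:6144671-6144970): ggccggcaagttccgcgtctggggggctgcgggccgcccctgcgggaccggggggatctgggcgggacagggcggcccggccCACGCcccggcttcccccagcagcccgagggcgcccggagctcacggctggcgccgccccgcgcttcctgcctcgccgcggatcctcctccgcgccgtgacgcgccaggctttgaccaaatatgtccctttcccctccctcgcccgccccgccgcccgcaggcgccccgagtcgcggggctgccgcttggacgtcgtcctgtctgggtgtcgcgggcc

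In CA9 the core, read on the minus strand, lies 18 bases before the start site, in ENO2 118 bases, in PFKFB3 168 bases, and HK2 holds 3 copies at 229, 55 and 48 bases. The core is short and common. ACGTG or GCGTG, searched on both strands, occurred in 47.8% of the 27305 promoters in the RefSeq table and in 63.7% of the 8127 measured genes that matched it. It occurred in 59.6% of the 193 matched lower genes and in 35 of the 70 matched higher genes. Among the 21 matched of the 26 lower genes on the hypoxia, oxygen sensor and glycolysis lists, 18 held it. These lists hold known hypoxia genes and were chosen with earlier results of these data known, so a high share is in part built in. The share was not compared with that of list genes that were not lower. A match is a string of letters and was not measured as binding.

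NDRG1, a stress gene that hypoxia induces, stood at 3299 CPM on normal food (3633 counts) and 307 CPM on tryptophan/niacin-free food (196 counts). The methionine-free libraries held 764 and 638 CPM and the combined omission 2319 CPM. NDRG1 was therefore 10.8-fold lower on tryptophan/niacin-free food than on normal food (95% interval 9.31 to 12.5), the lowest of all 5 libraries, and the combined omission lay closest to normal food. VEGFA, which encodes the main growth factor of blood vessels, stood at 671 CPM on normal food, 146 CPM on tryptophan/niacin-free food, 176 and 153 CPM on methionine-free food and 462 CPM on the combined omission. It was 4.61-fold lower (3.71 to 5.78). ADM, the vessel-dilating peptide adrenomedullin, stood at 111 and 15.7 CPM and was 7.07-fold lower (3.72 to 15.1). The ephrin EFNA1, also active in vessel growth, stood at 203 and 37.6 CPM and was 5.41-fold lower (3.54 to 8.62). All 3 vascular genes were lowest of the 5 libraries on tryptophan/niacin-free food, as the plot of 5 libraries shows for VEGFA and ADM.

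The same pattern was seen in genes that adapt metabolism and matrix to low oxygen. CA9, the membrane carbonic anhydrase that handles acid outside the cell, stood at 370 CPM on normal and 119 CPM on tryptophan/niacin-free food, 194 and 183 CPM on methionine-free food and 324 CPM on the combined omission, and was 3.1-fold lower (2.42 to 4.02). NDUFA4L2, which dampens complex I under hypoxia, stood at 165 and 18.8 CPM, against 82.5 and 98.7 CPM on methionine-free food and 138 CPM on the combined omission, and was 8.79-fold lower (4.91 to 17.3). BNIP3L, a receptor for the removal of mitochondria, stood at 103 and 12.5 CPM, 8.19-fold lower (4.02 to 19.4). Collagen-modifying enzymes were lower as well: PLOD2, a lysyl hydroxylase, by 3.95-fold (2.7 to 5.96), P4HA1, a prolyl hydroxylase, by 3.06-fold (2.14 to 4.47), and P4HA2 by 2.8-fold (1.94 to 4.15). The histone demethylase KDM3A was 2.72-fold lower (2.02 to 3.74), the clock-linked repressor BHLHE40 2.88-fold lower (1.89 to 4.53) and MIR210HG, the host transcript of a hypoxia-induced microRNA, 5.7-fold lower (2.47 to 16.2).

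Not every hypoxia gene followed. AK4 (115 and 103 CPM), HILPDA (37.2 and 34.5 CPM) and PLOD1 (48.1 and 62.7 CPM) had intervals that included 1. CA12 stood at 239 and 161 CPM, 1.48-fold lower (1.17 to 1.88), which is within the 2-fold limit. Of 9 list genes under the minimum, ANGPTL4 had 16 counts on normal food and 0 on tryptophan/niacin-free food, and APLN 11 and 0. BNIP3 had 4 and 0 counts, which is too few to compare.

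**Figure D2:**
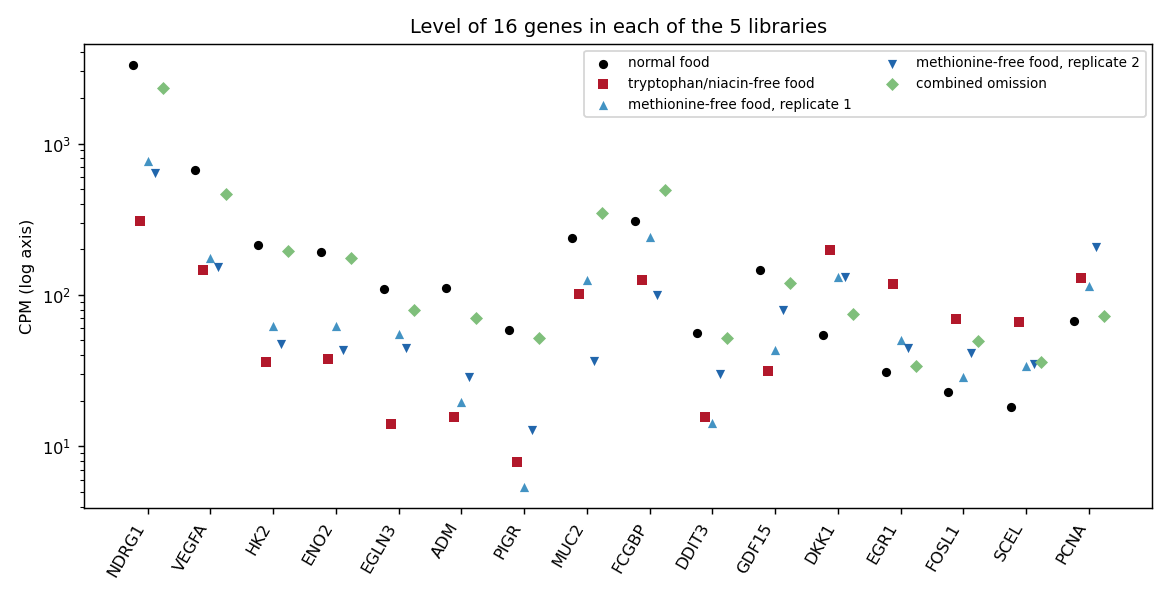
CPM (log axis) of 16 genes in each of the 5 libraries, 1 point per library. For NDRG1, VEGFA, HK2 and ENO2 the normal food and combined omission points lie above the tryptophan/niacin-free and both methionine-free points; DKK1 and EGR1 are highest on tryptophan/niacin-free food.

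Among the oxygen sensors and HIF subunits, 8 were measured and 2 were lower by the rule, beside 2.59% of all genes. EGLN3, a prolyl hydroxylase that HIF itself induces, stood at 110 and 14.1 CPM on normal and tryptophan/niacin-free food, 55.6 and 44.6 CPM on methionine-free food and 79.3 CPM on the combined omission, and was 7.79-fold lower (3.97 to 17.5). EGLN1, the main sensor, stood at 66.3 and 23.5 CPM and was 2.82-fold lower (1.6 to 5.3). The transcripts of the HIF proteins and of VHL were closer. HIF1A stood at 67.2 and 43.9 CPM (interval 0.98 to 2.46), EPAS1 at 75.4 and 67.3 CPM, ARNT at 44.5 and 47.0 CPM and VHL at 41.8 and 37.6 CPM, each with an interval that included 1. HIF is set mainly by protein stability, which RNA does not show.

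Most glycolysis genes were lower, with the largest folds at HK2, ENO2 and PFKFB3. Of 27 measured genes of glycolysis and glucose uptake, 24 lay below 0, 7 were lower by the rule (2.59% of all genes were) and 0 higher (0.858%), with a median log2 difference of -0.63 against -0.01 over all genes. HK2, the inducible hexokinase, stood at 213 CPM on normal and 36.0 CPM on tryptophan/niacin-free food, 62.8 and 47.7 CPM on methionine-free food and 195 CPM on the combined omission. It was 5.92-fold lower (3.85 to 9.53), while HK1, the constitutive form, stood at 165 and 163 CPM (0.793 to 1.3). PFKFB3, which makes the activator of phosphofructokinase, stood at 274 and 64.2 CPM, 4.27-fold lower (3.07 to 6.07). The glucose transporter SLC2A1 stood at 1915 and 674 CPM, 2.84-fold lower (2.56 to 3.16), and PDK1, which holds pyruvate back from mitochondria, at 114 and 29.8 CPM, 3.81-fold lower (2.34 to 6.55). The enolase pair split in the same way as the hexokinases. ENO2 stood at 192 and 37.6 CPM, 5.1-fold lower (3.33 to 8.13), and ENO1 at 2024 and 1825 CPM, 1.11-fold lower (1.03 to 1.19).

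The core enzymes were lower by less than 2-fold with narrow intervals. ALDOA stood at 1805 and 929 CPM (1.94-fold lower, 1.77 to 2.13), LDHA at 2317 and 1270 CPM (1.82-fold, 1.69 to 1.98) and PGK1 at 1298 and 730 CPM (1.78-fold, 1.6 to 1.98). GAPDH, often used as a stable reference, stood at 3883 and 2969 CPM (1.31-fold, 1.24 to 1.38). Within the methionine-free pair LDHA, ALDOA and PGK1 differed by 0.23 to 0.24 on the log2 scale. PYGL, liver-type glycogen phosphorylase (85.4 and 128 CPM), and LDHB (564 and 655 CPM) were the genes on this list with an interval above 1. Genes with near-identical copies elsewhere, GAPDH and LDHA among them, are uncertain, since the treatment of reads with several positions is not given in the sources used here.

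**Figure D3:**
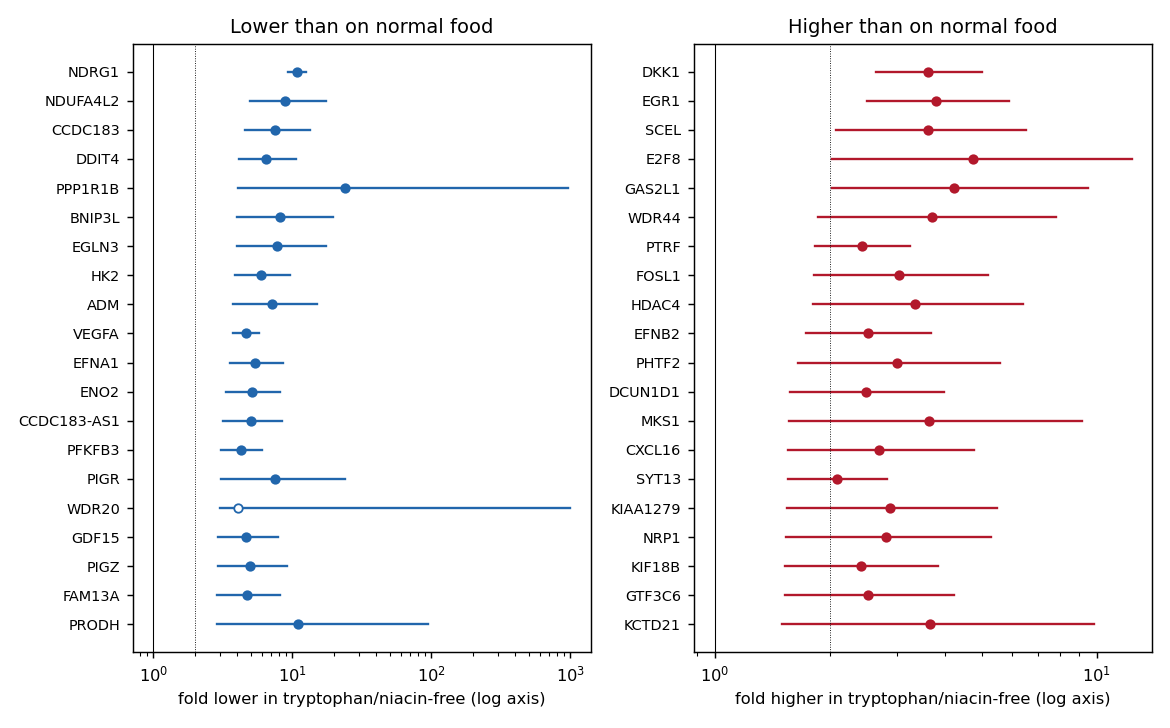
Fold and 95% counting interval (log axis) of the 20 lower and 20 higher genes whose interval lies furthest from 1. NDRG1 has the narrowest interval among the lower genes, and PPP1R1B and WDR20 have wide ones because they had 1 and 0 counts; the open circle for WDR20 is the fold against the floor of 3 counts, and its upper bound, drawn to the plot edge, is infinite.

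Mucus genes and brush border genes were lower in part. HT-29 cells can take on goblet-like and enterocyte-like features. Of 18 measured mucin and goblet cell genes, 5 were lower by the rule (2.59% of all genes), 0 higher (0.858%), and 15 lay below 0, with a median log2 difference of -0.55. PIGR, which carries antibodies across the epithelium, stood at 59.0 and 7.83 CPM, 7.54-fold lower (3.07 to 24.0), and at 5.38 and 12.7 CPM on methionine-free food and 52.1 CPM on the combined omission. MUC2, the gel-forming mucin of the colon, stood at 238 and 102 CPM, 2.34-fold lower (1.77 to 3.12). Within the methionine-free pair MUC2 stood at 126 and 36.6 CPM, a wider gap than between the foods. FCGBP, a mucus-bound protein, stood at 306 and 125 CPM, 2.44-fold lower (1.91 to 3.16), and likewise differed within the pair, at 240 and 100.3 CPM. MUC5AC, the gastric-type mucin, stood at 309 and 338 CPM (0.92 to 1.3), and LYZ, lysozyme, at 2335 and 2240 CPM (0.977 to 1.11), so the members did not all lie lower. In bulk RNA fewer cells of a type and less RNA per cell cannot be told apart.

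Of 15 measured colonocyte and brush border genes, 3 were lower by the rule and 0 higher, beside 2.59% and 0.858% of all genes. These were CDHR2, a cadherin of microvilli (23 and 2 counts), the peptidase ANPEP (20 and 2 counts) and PHGR1 (29 and 4 counts), so all 3 calls rest on few reads. LGALS4, a galectin of gut epithelium, stood at 1428 and 1024 CPM, 1.39-fold lower (1.27 to 1.53). The intervals of VIL1, a bundler of microvillus actin (217 and 213 CPM), the lineage factor HNF4A (144 and 142 CPM) and KRT20 (834 and 840 CPM) included 1. Of 17 measured epithelial identity genes 2 were lower by the rule and 0 higher, beside 2.59% and 0.858% of all genes. These were the tight junction gene CLDN3 (247 and 113 CPM, 2.19-fold, 1.68 to 2.88) and the epithelial transcription factor ELF3 (479 and 222 CPM, 2.16-fold, 1.79 to 2.61).

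Lists of tryptophan use and NAD supply, the chemistry the food leaves short of its dietary source, are small, and with 3.45% of all genes called in either direction a count of 0 or 1 is near the background and reads as no result about them. Of 5 measured genes from tryptophan or nicotinic acid to NAD, 0 were called in either direction. NADSYN1, which makes NAD in the last Preiss-Handler step, stood at 179 and 136 CPM, 1.31-fold lower (1.01 to 1.71), and NAPRT, its first enzyme, at 273 and 221 CPM, 1.24-fold lower (1.01 to 1.52). IDO1 and TDO2, which open the kynurenine pathway, were at 0 counts in both libraries, and QPRT, where the pathway joins NAD synthesis, stood at 37.2 and 29.8 CPM (0.71 to 2.28). Of 9 measured salvage genes 0 were called. NAMPT, the rate-limiting enzyme of salvage, stood at 99.9 and 75.2 CPM (0.938 to 1.91). NNMT, the enzyme the study design names, had 9 and 5 counts and lay under the minimum, so its level could not be compared at this depth.

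Of 20 measured NAD-consuming genes, PARP3 alone was called, at 22.7 and 6.27 CPM (3.62-fold lower, 1.25 to 14.3). PARP1 stood at 127 and 141 CPM (0.841 to 1.46) and SIRT1 at 22.7 and 21.9 CPM. MAOA, which degrades serotonin, a product of tryptophan, stood at 101 and 40.7 CPM, 2.48-fold lower (1.6 to 3.95), against 87.9 and 78.0 CPM on methionine-free food. WARS, which charges the tRNA of tryptophan, stood at 66.3 and 72.0 CPM (0.735 to 1.59). SLC7A5, a carrier of tryptophan and other large amino acids, stood at 171 and 230 CPM, 1.35-fold higher (1.08 to 1.68). The aryl hydrocarbon receptor, which kynurenine can activate, had 0 of 6 measured list genes called. AHR itself stood at 61.7 and 53.3 CPM, its target NQO1 at 195 and 197 CPM, and CYP1A1 at 0 counts in both. Of 14 measured methionine cycle genes 0 were called. MAT2A, which makes S-adenosylmethionine, stood at 475 and 567 CPM (1.19-fold higher, 1.04 to 1.37).

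Several damage-control genes of the amino acid response were lower, and its genes of synthesis and uptake did not share one direction. When an amino acid is short, GCN2 (gene EIF2AK4) and the factor ATF4 raise genes of amino acid synthesis and uptake and, through CHOP, genes of damage control. Of 35 measured genes of this response 7 were lower by the rule and 0 higher, where 2.59% and 0.858% of all genes were. DDIT4, an inhibitor of mTORC1 that hypoxia also induces and that is on the hypoxia list too, stood at 212 and 32.9 CPM, 6.43-fold lower (4.11 to 10.6), with 96.8 and 95.5 CPM on methionine-free food. GDF15, a secreted stress signal, stood at 146 and 31.3 CPM, 4.67-fold lower (2.92 to 7.84), and DDIT3, the gene of CHOP, at 56.3 and 15.7 CPM, 3.59-fold lower (1.83 to 7.86). ATF3, NUPR1, HERPUD1 and PPP1R15A were the other 4, at 2.15-fold to 4.29-fold lower.

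ATF4 itself stood at 343 and 320 CPM (0.904 to 1.28). ASNS, asparagine synthetase, stood at 58.1 and 95.5 CPM, 1.64-fold higher (1.14 to 2.37). PHGDH, the first enzyme of serine synthesis, stood at 31.8 and 59.5 CPM, 1.87-fold higher (1.15 to 3.05). EIF2AK4 stood at 49.0 and 75.2 CPM, 1.53-fold higher (1.02 to 2.31), and PYCR1, of proline synthesis, at 97.2 and 136 CPM, 1.4-fold higher (1.04 to 1.88). These 4 and SLC7A5 are the 5 list genes with an interval above 1, all within 2-fold, and 9 had an interval below 1. Of all genes 6.1% had an interval above 1 and 7.87% below. ALDH18A1, also of proline synthesis, was 1.37-fold lower (1.1 to 1.72), and PSAT1 and PSPH, of serine synthesis, had intervals that included 1. Of 20 aminoacyl-tRNA synthetases, 0 were called. Of 35 mTORC1 and amino acid sensing genes 1 was called, beside 3.45% of all genes. This was TBC1D7, a partner of the TSC brake on mTORC1, at 25 and 5 counts.

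Proliferation genes lay slightly higher. Of 43 measured DNA replication genes 37 lay above 0, as did 4847 of all 9910 genes, and the list had a median log2 difference of 0.31. By the rule 2 were higher (against 0.858% of all genes) and 0 lower. The interval lay above 1 for 10 of the 43, against 6.1% of all genes. The pair of methionine-free libraries differed by a median of 0.23 over this list, a shift of similar size between libraries of one food. E2F8, a cell cycle factor, stood at 7.26 and 34.5 CPM, 4.74-fold higher (2.03 to 12.3), with 23.3 and 19.1 CPM on methionine-free food. RFC2, part of the clamp loader, stood at 28.1 and 59.5 CPM, 2.11-fold higher (1.28 to 3.51). PCNA, the sliding clamp, stood at 67.2 and 128 CPM, 1.91-fold higher (1.38 to 2.65), with 115 and 207 CPM on methionine-free food and 72.5 CPM on the combined omission. Of 45 mitosis genes 35 lay above 0 and 0 were called. Their median log2 difference was 0.27 between the foods and a similar 0.22 within the methionine-free pair. MKI67, the proliferation marker, stood at 410 and 551 CPM, 1.35-fold higher (1.17 to 1.55).

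Of 23 measured cell cycle brakes and p53 targets 17 lay below 0, with a median log2 difference of -0.40. By the rule 2 were lower and 1 higher, too few to set apart from the 2.59% and 0.858% of all genes. CDKN1B, the inhibitor p27, stood at 79.9 and 36.0 CPM, 2.22-fold lower (1.39 to 3.68). CDKN1C, the inhibitor p57, had 19 counts and 1 count, 11.0-fold lower with an interval from 1.75 to 458. CDKN2B, the inhibitor p15, stood at 9.99 and 23.5 CPM, 2.35-fold higher (1.01 to 5.66). CDKN1A, the p53-driven inhibitor p21, stood at 69.9 and 50.1 CPM (0.913 to 2.18), and MDM2 at 85.4 and 61.1 CPM (0.952 to 2.08).

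Among the higher genes, DKK1 and EGR1 had the intervals furthest from 1. DKK1, a secreted WNT inhibitor, stood at 54.5 CPM on normal food and 197 CPM on tryptophan/niacin-free food, with 131 and 132 CPM on methionine-free food and 74.8 CPM on the combined omission. It was 3.62-fold higher (2.64 to 5.01) and highest in the tryptophan/niacin-free library of all 5. It was the sole call among 21 measured WNT genes, beside 3.45% of all genes called in either direction. EGR1, an immediate early transcription factor switched on by growth factor signalling, stood at 30.9 and 118 CPM, against 50.2 and 44.6 CPM on methionine-free food and 34.0 CPM on the combined omission, and was 3.81-fold higher (2.5 to 5.89). The EGR1 promoter is shown because it holds 2 copies of the CArG box, the element that serum response factor binds, which 1.31% of all promoters hold. Among the 70 matched higher genes EGR1 alone held it (1.43%), against 1.13% of matched measured genes. Capitals mark both copies, 105 and 83 bases before the start site on the plus strand of GRCh38.p14. The window also holds the core ACGTG, read on the minus strand and left in small letters.

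EGR1 (chr5:138465229-138465528): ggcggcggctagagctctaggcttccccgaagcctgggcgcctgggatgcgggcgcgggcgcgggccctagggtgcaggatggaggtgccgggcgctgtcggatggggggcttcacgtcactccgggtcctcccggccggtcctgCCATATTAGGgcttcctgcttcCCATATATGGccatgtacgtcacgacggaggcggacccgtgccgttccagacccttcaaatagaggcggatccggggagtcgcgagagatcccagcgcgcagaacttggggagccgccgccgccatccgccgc

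The other immediate early genes did not share one direction. FOSL1, an AP-1 subunit, stood at 22.7 and 68.9 CPM, 3.04-fold higher (1.82 to 5.18). JUND, another AP-1 subunit, stood at 134 and 50.1 CPM, 2.68-fold lower (1.82 to 4.06), DUSP1, a MAP kinase phosphatase, at 34.5 and 11.0 CPM, 3.15-fold lower (1.39 to 8.35), and CYR61, a matrix signal also known as CCN1, at 37.2 and 15.7 CPM, 2.38-fold lower (1.17 to 5.32). Of 37 measured genes on that list 5 were lower and 2 higher by the rule, beside 2.59% and 0.858% of all genes, 1 of the 5 being ATF3 and 1 NR4A1. FOS stood lower, at 108 and 53.2 CPM, close to the 2-fold limit, but was not called. MYC stood at 198 and 236 CPM (0.964 to 1.48).

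The other higher genes named by the same rule of choice form no group. Of 31 measured keratin and squamous genes 1 was higher and 1 lower, beside 0.858% and 2.59% of all genes. Of 28 actin cytoskeleton and YAP target genes 0 were higher and 1 lower. SCEL, sciellin of squamous epithelium, stood at 18.2 and 65.8 CPM, 3.62-fold higher (2.08 to 6.51). PTRF, the caveolae coat gene also known as CAVIN1, stood at 77.2 and 188 CPM, 2.44-fold higher (1.83 to 3.25), and EFNB2, an ephrin ligand, at 45.4 and 114 CPM, 2.52-fold higher (1.73 to 3.69). GAS2L1, which links actin and microtubules, stood at 9.99 and 42.3 CPM, 4.23-fold higher (2.03 to 9.46), but at 43.1 CPM on the combined omission too. The actin crosslinker FLNA was not called but had a narrow interval, at 719 and 1275 CPM (1.77-fold higher, 1.61 to 1.96), and was highest of the 5 libraries, which otherwise ranged from 455 to 719 CPM. Further called genes were HDAC4, a histone deacetylase (15.4 and 51.7 CPM), the chemokine CXCL16 (20.9 and 56.4 CPM), the coreceptor NRP1 (17.2 and 48.5 CPM) and the mitotic kinesin KIF18B (31.8 and 76.7 CPM). WDR44, PHTF2, DCUN1D1, MKS1, SYT13, KIAA1279, GTF3C6, KCTD21 and FLVCR2 complete that set.

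Other lower genes reached large folds on few reads. PPP1R1B, a phosphatase regulator, had 41 counts and 1 count, 23.8-fold lower with an interval from 4.03 to 962, and stood at 23.3 to 34.0 CPM in the other 3 libraries. WDR20, a partner of deubiquitinating enzymes, had 21 counts and 0. Against a floor of 3 counts in the tryptophan/niacin-free library it was 4.06-fold lower, and the lower limit of the fold is 3.02 when both counts are allowed error. The incretin receptor GIPR had 27 counts and 1, the matrix gene ECM1 25 and 1, and PRODH, proline dehydrogenase, 38 and 2 (11.0-fold lower, 2.85 to 94.2). CCDC183 and CCDC183-AS1 were both lower, at 7.54-fold (4.53 to 13.4) and 5.01-fold (3.15 to 8.42). They overlap on opposite strands and the strand setting of the counting is not given, so their reads may not be separable. FAM13A was 4.7-fold lower (2.87 to 8.16) and PIGZ, of GPI anchor synthesis, 4.99-fold lower (2.91 to 9.17). Shared reads also concern IGF2 and INS-IGF2, which carry the same 28 and 40 counts.

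Lists of general cell machinery had few calls. Of 80 cytosolic ribosomal protein genes 0 were called and 71 lay below 0, with a median log2 difference of -0.13. The interval lay below 1 for 34 of them and above 1 for 0, beside 7.87% and 6.1% of all genes. The methionine-free pair differed by a median of 0.57 on the same genes, and near-identical pseudogenes make single members uncertain. The lists with 0 calls in either direction were respiratory chain and ATP synthase (77 measured, median 0.09), TCA cycle (25, median 0.04), proteasome (31, median 0.18), cholesterol synthesis (24, median 0.15), NRF2 and redox genes (32, median 0.20), interferon-stimulated genes (36, median 0.07) and HLA class I and antigen processing (20, median -0.08). Several lists had single calls or a few. These counts stand beside 2.59% of all genes lower and 0.858% higher, and none was tested. CHORDC1, a chaperone partner, was higher among 29 heat shock genes (16.3 and 45.4 CPM), NIP7 was higher among 49 ribosome biogenesis genes (19.1 and 48.5 CPM), and CFB, complement factor B, was lower among 14 NF-kB targets (36.3 and 15.7 CPM). Of 33 autophagy genes 2 were lower, ULK1 at 162 and 68.9 CPM and BNIP3L, which is on the hypoxia list too. Of 30 fatty acid genes 3 were lower, among them the lipid droplet coat PLIN2 (36.3 and 12.5 CPM) and the nuclear receptor PPARD (109 and 53.2 CPM). Of 15 long noncoding RNAs 2 were lower, MIR210HG, already counted on the hypoxia list, and MALAT1 (479 and 222 CPM). MALAT1 also differed within the methionine-free pair (219 and 79.6 CPM).

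**Figure D4:**
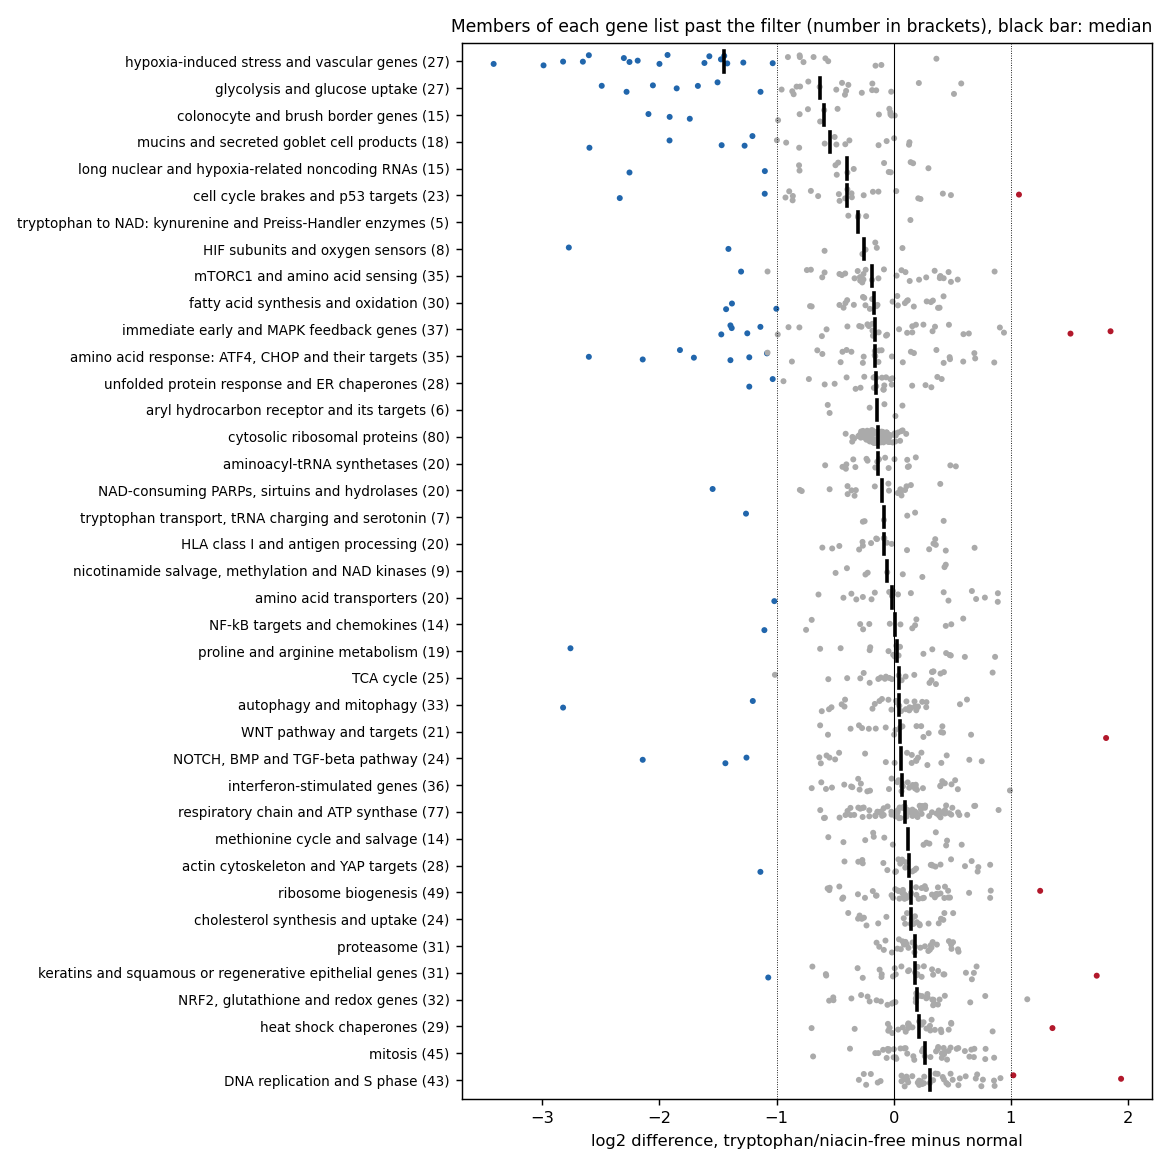
The log2 difference (tryptophan/niacin-free minus normal) of every measured member of 39 gene lists, with the number of members in brackets, blue and red for lower and higher by the rule, and a black bar at the median. The hypoxia list stands leftmost at -1.45, glycolysis next at -0.63, and DNA replication rightmost at 0.31.

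Markers of host cell types were scarce, and the sources do not give how mouse reads were treated. Of 24 skeletal muscle genes 22 lay under the minimum and 10 were at 0 in both libraries. The 2 measured muscle genes lay below 0, at log2 differences of -1.40 and -0.61, and 1 was lower by the rule. The fast myosin chains were an exception in 1 library: MYH1 had 0 and 14 counts, MYH2 0 and 15, and MYH4 0 and 12 on normal and tryptophan/niacin-free food, while CKM was at 0 in both and ACTA1 had 1 count in each. The summed muscle level was 109 CPM on normal and 133 CPM on tryptophan/niacin-free food. That sum includes the myosin counts and does not give the direction of the other muscle genes. Summed fibroblast genes stood at 62.6 and 90.8 CPM, with COL1A1 at 11 counts in each library, COL3A1 and VIM at 0 or 1 count, and SPARC at 35.4 and 67.3 CPM (1.9-fold higher, 1.2 to 3.01). Summed pericyte and smooth muscle genes stood at 335 and 218 CPM, with 1 of 3 measured genes lower by the rule. With so few genes measured, 1 call is not set apart from the 2.59% of all genes. Endothelial genes stood at 66.3 and 48.5 CPM, and myeloid genes, nearly all LYZ, at 2400 and 2279 CPM. Natural killer and lymphoid genes summed to 3 counts and 1 count, and red blood cell genes were at 0. Whether host tissue contributes to the differences above was not tested.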

How the data were processed

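Values are expected counts for each gene symbol, as deposited by the authors; per the labels' protocols, the library kit kept strand information. Tools and build listed in the submitters' processing notes are Subread 2.0.0 with featureCounts, TopHat2 2.1.1, SAMtools 0.1.18, Bowtie2 2.2.8 and the hg19 build. The annotation, strand setting and treatment of multi-mapping and mouse reads are not given in the sources. Between 15.2% and 17.6% of values above 0 had decimals; values were rounded to whole counts. TMM factors (0.926 to 1.04) came from all 5 libraries, on 10005 genes kept by filterByExpr of edgeR 4.0.16 in R 4.3.3. Folds are ratios of scaled counts with exact conditional binomial intervals. The method was tested on simulated data with counting error only, so variation between animals or libraries was not covered. PCR copies cannot be recognised, so intervals cover counting error only. Alternatives were other scalings (one from DESeq2 1.42.0), prior counts, minimums, intervals and folds.

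The members and lists were chosen with earlier results of these data known. Genes named are the 20 lower and 20 higher with the interval furthest from 1, the 10 in each direction with the largest difference, list members by call or defining role, and highest markers. Genes of the solute carrier family were chosen after their values were seen. Promoters came from RefSeq GRCh38.p14, matched by symbol; no other coordinates are printed, because the files use another build. Figures used matplotlib 3.10.9. A withheld item is not reported here.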

Additional observations from a re-analysis of the deposited data

Results flagged for a closer look

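The hypoxia-induced stress and vascular genes had opposite signs in the comparisons that leave out tryptophan and niacin with and without methionine in the food. With methionine in the food their median log2 difference was -1.45 (tryptophan/niacin-free against normal), and without it 0.73 and 0.81 (combined omission against methionine-free replicates 1 and 2). The colonocyte and brush border genes had the same opposite signs, at -0.59 against 0.35 and 0.32. The split follows the style of the sample titles, which normal food and the combined omission share, so handling and food cannot be told apart here. Neither difference was tested, and the colonocyte value was -0.08 over its genes with a mean of at least 50 counts.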

How the results depend on the processing

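No paired analysis was possible because each food compared has 1 library. The rule called 257 genes lower and 85 higher. Both directions moved past 1.5 times with a mean of at least 50 counts (77 lower, 7 higher), a 1.5-fold limit (520 and 337) and a 3-fold limit (79 and 9). The higher count also moved with a prior count of 5 (51), no minimum beyond 1 count (129) and a 99% interval (56). Other scalings gave 231 to 252 lower and 87 to 105 higher genes, and moved the median of all genes by 0.039 at most. Of 280 alternative list medians, 277 stayed within the 0.2 tolerance; at a mean of 50 counts the colonocyte list moved to -0.08, the methionine cycle to -0.09 and mTORC1 to 0.10. All 279 alternative values of named genes kept their direction. These genes were named for large differences and the scalings moved genes little, so this was largely fixed in advance. Named genes under a mean of 50 counts, among them most of the higher ones, have no value at that setting. Leaving out a replicate could not be done, since each side is a lone library. Depth limits genes near 10 counts, where intervals span several fold.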

Other observations

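Solute carriers, the membrane transporters of nutrients and ions, held several of the lower genes; this family was picked after its values were seen. Of 171 measured genes named SLC, 14 were lower by the rule (8.19%, beside 2.59% of all genes) and 2 higher, while the family's median log2 difference was 0.00. SLC6A8, which takes up creatine, stood at 774 CPM on normal food, 269 CPM on tryptophan/niacin-free food, 380 and 289.6 CPM on methionine-free food and 635 CPM on the combined omission, 2.87-fold lower (2.44 to 3.4). SLC11A2, an importer of iron, stood at 198 and 78.3 CPM, 2.53-fold lower (1.85 to 3.51), and SLC5A1, the sodium-glucose carrier of the gut, at 81.7 and 31.3 CPM, 2.61-fold lower (1.59 to 4.47). The 2 higher genes rest on few reads, SLC25A4, a mitochondrial ADP/ATP carrier, at 13 and 21 counts and SLC23A2, a vitamin C transporter, at 15 and 20 counts.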
